A study of Mus musculus with 6 samples.

Results

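The genes described here are the mouse genes, other than Setdb1, for enzymes that write methyl groups on lysine 9 of histone H3 (H3K9), for the HP1 proteins that read this mark, and for enzymes that erase it. They were taken by symbol from a table of 25416 genes, and all 10 named genes were found: the methyltransferase genes Suv39h1, Suv39h2, Ehmt1, Ehmt2 and Setdb2, the HP1 genes Cbx1, Cbx3 and Cbx5, and the demethylase genes Kdm4a and Kdm3a. The rule itself uses no measured value. RNA came from AML12, a line of mouse hepatocytes derived from an animal transgenic for human TGF alpha, which all 6 libraries share. The siSetdb1 group (n = 3) had been transfected with small interfering RNA against Setdb1 and the siNC group (n = 3) with a scrambled RNA, in both cases 72 h before RNA was taken and at the same amount (given in the labels as 50 nm). Whether replicate libraries were grown as independent cultures is not stated in the labels, so every p-value here is set against a spread that could be technical.

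SETDB1, SUV39H1 and SUV39H2 are known as writers of trimethylated H3K9, the mark of compact and silent chromatin, with the SUV39H enzymes acting mainly at the repeats beside centromeres. G9a (gene Ehmt2) and GLP (gene Ehmt1) work as a pair and place the mono- and dimethyl marks in euchromatin. HP1 proteins bind methylated H3K9 through a chromodomain and in turn hold methyltransferases in place, while JmjC enzymes such as KDM4A and KDM3A take the methyl groups off. The comparison asks whether the mRNA of these parallel enzymes and readers differs when that of Setdb1 is reduced.

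Library sizes, as recovered from the deposited values and exon lengths, were 17073231 to 17835060 reads in siSetdb1 and 16790582 to 17401848 reads in siNC. These are the totals behind the scaling, which may leave out reads that were sequenced but not counted. Reads per gene were recovered in the same way. Values are in FPKM (reads scaled to exon length and to library size), which divides by gene length and so allows levels of different genes to be set side by side. Setdb1 itself, the targeted gene, had 4.29, 4.21 and 3.29 FPKM in siSetdb1 libraries against 8.41, 8.54 and 9.43 FPKM in siNC libraries, with no overlap. Of 10 hepatocyte markers, 9 were tested, and by limma 3 fell in siSetdb1 (Trf, log2 fold change -1.39, adjusted p = 0.00816; Ttr, -1.91, adjusted p = 0.0247; Cebpa, -0.39, adjusted p = 0.0484) and 1 rose (Krt18, 0.30, adjusted p = 0.0364). Without siNC replicate 1, Ttr and Cebpa did not pass (adjusted p = 0.0664 and 0.0800, limma). The list summed to 3355 to 3475 FPKM in siSetdb1 and 2826 to 3236 FPKM in siNC, most of it Krt8 and Krt18. Among those that did not pass, the liver regulator Hnf4a had 27.1 to 32.3 FPKM in siSetdb1 and 30.2 to 38.2 FPKM in siNC, whereas the plasma protein gene Alb had only 1.45 to 4.501 FPKM in siSetdb1 and 4.05 to 14.3 FPKM in siNC. Of 5 biliary markers, 4 were tested, and by limma 2 rose in siSetdb1 (Krt7, log2 fold change 0.50, adjusted p = 0.00827; Sox9, 0.78, adjusted p = 0.00680) and 1 fell (Spp1, -0.92, adjusted p = 0.00689). Krt19, a keratin of bile duct cells, had 1264 to 1431 FPKM in siSetdb1 and 1204 to 1444 FPKM in siNC and did not pass (adjusted p = 0.691, limma), and the list summed to 1604 to 1784 and 1611 to 1792 FPKM. The summed level of 4 listed endothelial markers was at most 0.193 FPKM in siSetdb1 and 0.0840 FPKM in siNC, and that of 5 fibroblast markers at most 0.393 and 0.219 FPKM. Of 5 macrophage and leukocyte markers, 4 were in the table, with a sum of 2.39 to 3.17 FPKM in siSetdb1 and 4.75 to 6.64 FPKM in siNC. Nearly all of it was Cd68, which fell in siSetdb1 (log2 fold change -0.84, adjusted p = 0.0120, limma), and the leukocyte marker Ptprc was at or under 0.00960 FPKM in each library. The part of these markers in the results below was not tested. In bulk RNA, fewer cells of a kind and less RNA per cell cannot be told apart. siNC replicate 1 stood apart from the other siNC libraries, at 15.0 against -10.7 and -14.0 on the second principal component (19.3% of the variance). The change of each of the 10 genes is given with and without it, while ratios and summed levels are given with all 6 libraries.

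Of the 10 genes, 1 passed the test. All 10 met the filter on low values (at least 0.5 FPKM in 3 or more libraries), and Ehmt2 had an adjusted p under 0.05 in limma on log2(FPKM + 1). It was lower in siSetdb1. The 10% called is near the background, since 15.1% of the 12846 genes tested were called (6.87% higher and 8.27% lower in siSetdb1). The median log2 fold change was 0.05 over the 10 genes and -0.02 over all genes tested, and the median size of a change, sign aside, was 0.15 and 0.16. The 95% intervals of the 10 changes ran from -0.47 at the lowest to 0.59 at the highest on the log2 scale. Every interval therefore left out a change of 2-fold in FPKM + 1 in either direction, as did those of 95.5% of all genes tested. The interval of Setdb1 ran from -1.23 to -0.76. For genes of a few FPKM this scale understates a change in FPKM itself: Setdb1 was at -0.995 here and at -1.17 by limma-voom on recovered reads.

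**Figure D1:**
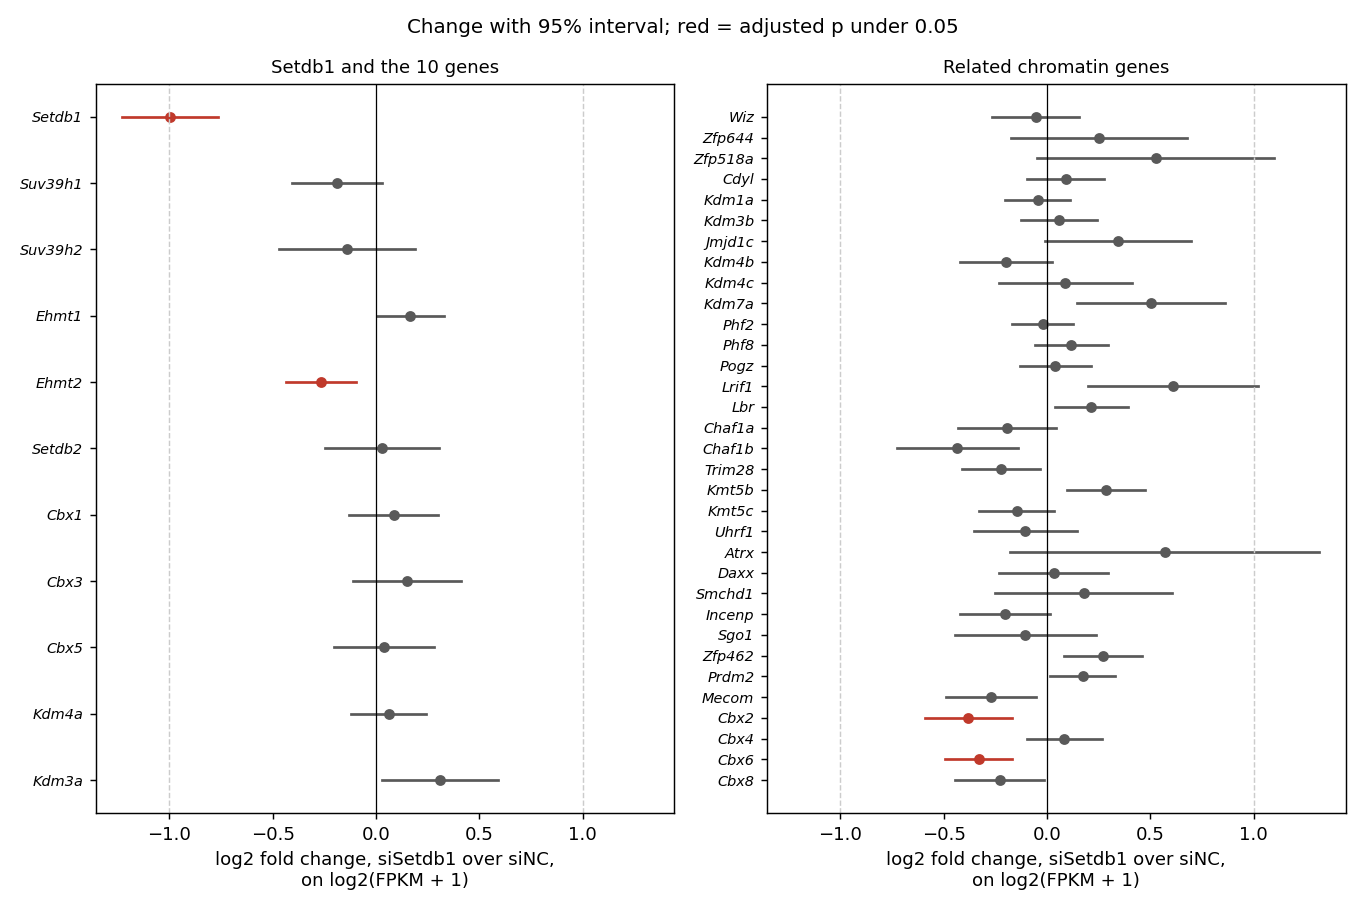
Difference in log2(FPKM + 1), siSetdb1 minus siNC (x axis), for Setdb1 and the 10 genes on the left and for related chromatin genes on the right; points are limma estimates, bars 95% intervals, and red marks an adjusted p under 0.05. Setdb1 lies at -0.995, Ehmt2 at -0.27, and the intervals of the other 9 genes lie between -0.47 and 0.59.

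Levels differed far more between the genes than between the groups. In siSetdb1 and siNC libraries the HP1 alpha gene Cbx5 averaged 52.2 ± 3.1 and 51.0 ± 6.7 FPKM and the G9a gene Ehmt2 34.5 ± 1.1 and 41.8 ± 2.9 FPKM (SD, n = 3 each). At the low end stood Setdb2, at 2.88 ± 0.43 and 2.80 ± 0.44 FPKM, and Suv39h2, at 2.64 ± 0.65 and 2.99 ± 0.44 FPKM (SD, n = 3 each). Between 159 and 262 reads per library stood behind each value of this lowest pair, and between 963 and 8574 reads behind each value of the other 8 genes, so these 2 genes carry more counting error. With Setdb1 at 3.93 ± 0.56 FPKM in siSetdb1 and 8.80 ± 0.55 FPKM in siNC, the targeted gene held 6.10% ± 0.75 and 11.4% ± 1.0 of the summed FPKM of the 6 methyltransferase genes.

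**Figure D2:**
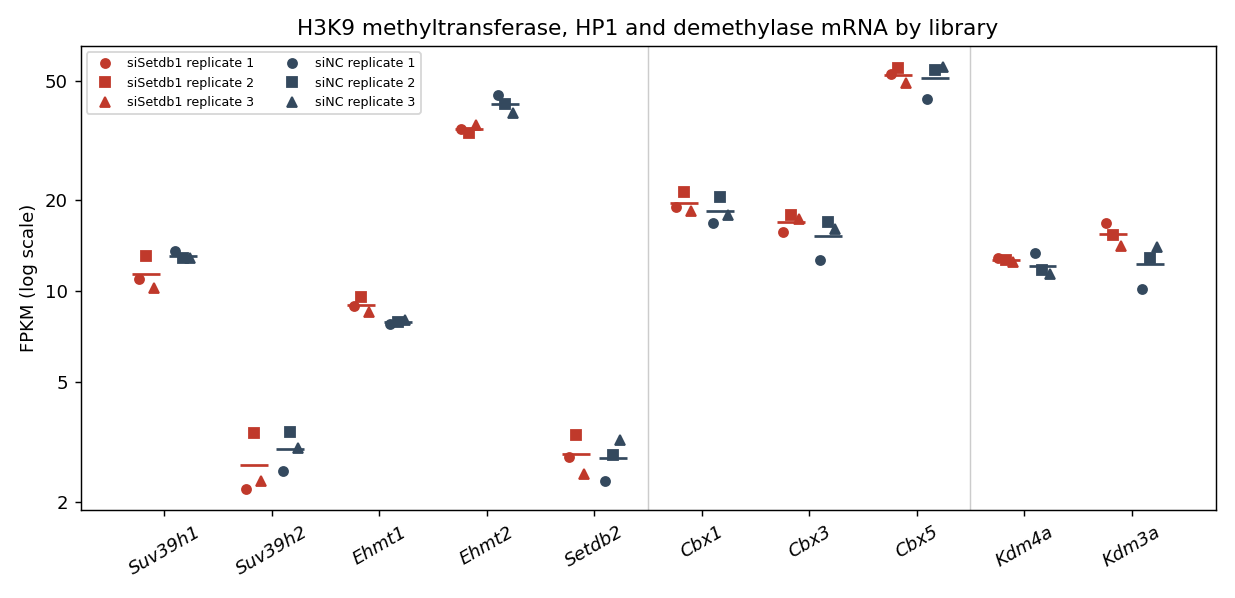
FPKM of the 10 genes (log y axis) in each library, with siSetdb1 in red to the left of siNC in dark blue, a marker shape per replicate number and a line at each group mean. Cbx5 and Ehmt2 are the highest and Suv39h2 and Setdb2 the lowest, and the groups are apart only for Ehmt1, Ehmt2 and Kdm3a.

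Ehmt2 and Ehmt1 encode both subunits of the G9a and GLP complex, and their estimates had opposite signs, of which that of Ehmt2 passed the test. The windows around their annotated transcription starts (250 bases before to 50 after, RefSeq, GRCm38.p6) are shown because this pair holds the only called gene and its partner. Capitals mark GGGCGG, the core that SP1 binds, and GCGTGGGCG, the site of EGR1, each on either strand. Ehmt2 has 2 annotated starts, at chr17:34898224-34898523 and chr17:34898720-34899019 on the plus strand, and Ehmt1 has 1, at chr2:24919560-24919859 on the minus strand.
Ehmt2 first start: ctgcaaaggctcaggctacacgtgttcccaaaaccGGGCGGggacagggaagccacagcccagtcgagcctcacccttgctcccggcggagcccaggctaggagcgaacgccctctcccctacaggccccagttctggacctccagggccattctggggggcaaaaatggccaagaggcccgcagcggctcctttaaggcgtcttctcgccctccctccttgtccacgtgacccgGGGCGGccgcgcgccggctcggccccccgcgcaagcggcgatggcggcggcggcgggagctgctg
Ehmt2 second start: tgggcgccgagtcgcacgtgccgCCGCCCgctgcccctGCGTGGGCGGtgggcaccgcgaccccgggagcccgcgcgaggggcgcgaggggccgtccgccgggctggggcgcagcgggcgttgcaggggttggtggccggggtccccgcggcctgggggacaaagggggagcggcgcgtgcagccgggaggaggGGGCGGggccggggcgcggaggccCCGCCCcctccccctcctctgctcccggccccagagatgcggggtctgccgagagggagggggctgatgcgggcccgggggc
Ehmt1 start: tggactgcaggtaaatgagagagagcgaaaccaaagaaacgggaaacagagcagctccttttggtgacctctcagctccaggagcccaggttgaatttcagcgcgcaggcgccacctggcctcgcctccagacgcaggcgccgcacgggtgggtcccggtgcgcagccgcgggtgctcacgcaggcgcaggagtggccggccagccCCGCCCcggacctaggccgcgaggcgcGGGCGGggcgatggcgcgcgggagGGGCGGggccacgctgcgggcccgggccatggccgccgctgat

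All 3 windows are rich in CpG. Their GC content was 70.3%, 82.7% and 71.7%, against a median of 52.7% over 32851 RefSeq windows of the same length, and the observed over expected CpG ratio was 0.759, 0.803 and 0.890, against a median of 0.384. This is not particular to the pair: the first windows of the 10 genes had 52.7% to 75.3% GC and CpG ratios of 0.610 to 1.09. The windows held 2, 4 and 3 copies of GGGCGG. The EGR1 letters were found in the second Ehmt2 window only, where they overlap a GGGCGG. Over all windows, 35.7% held GGGCGG and 0.612% held GCGTGGGCG. Of the 10 genes, 8 had GGGCGG and 1, Cbx3, had GCGTGGGCG in the window of the first start listed. The first Cbx3 window also held an E2F motif (TTTCCCGC or TTTGGCGC, either strand), found in 1.56% of all windows, and no first window of the 10 genes held the ETS motif CCGGAAGT, found in 3.89%. These are matches of letters, and binding was not measured.

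Ehmt2 (ENSMUSG00000013787, chromosome 17, 34898469 to 34914052 of mm10) had 34.5, 33.4 and 35.6 FPKM in siSetdb1 libraries against 44.8, 41.8 and 38.9 FPKM in siNC libraries. Each siSetdb1 library was below each siNC library, with siNC replicate 1 the highest. The mean was 17.4% lower in siSetdb1 (log2 fold change -0.27, SE 0.07, interval -0.44 to -0.10, adjusted p = 0.0468, limma). This call lies close to the threshold: the adjusted p ranged from 0.0161 to 0.156 over 13 other settings and was under 0.05 in 5 of them, while the change stayed between -0.32 and -0.22. Without siNC replicate 1 the change was -0.22 (adjusted p = 0.0504, limma), and the other libraries whose removal ended the call were siNC replicate 2 and each of the 3 siSetdb1 libraries (adjusted p = 0.109, 0.145, 0.156 and 0.0967).

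Ehmt1 (ENSMUSG00000036893, chromosome 2, 24789928 to 24919614) had 8.92, 9.58 and 8.53 FPKM in siSetdb1 libraries against 7.80, 7.93 and 8.005 FPKM in siNC libraries. The groups did not overlap, and the siNC libraries lay close together (7.91 ± 0.10 FPKM, SD, n = 3). The change did not pass (log2 fold change 0.17, SE 0.07, interval 0.01 to 0.33, adjusted p = 0.144, limma), and it was 0.16 without siNC replicate 1. Groups without overlap are common in these data, at 39.2% of the genes tested, and 3 of the 10 genes had them.

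Within a library, the Ehmt2 level was 3.87, 3.48 and 4.17 times the Ehmt1 level in siSetdb1 and 5.74, 5.26 and 4.86 times it in siNC. The ratio averaged 3.84 ± 0.35 in siSetdb1 and 5.29 ± 0.44 in siNC (SD, n = 3 each), and no siSetdb1 library reached the lowest siNC library. A ratio within a library does not depend on how libraries are scaled, but it can carry a library's trend with GC content. Transcripts of Ehmt2 have 59.3% GC and those of Ehmt1 51.4%. siNC replicate 1, with the highest ratio, held 111% of the Ehmt2 and 97.9% of the Ehmt1 level of the other siNC libraries. The part of GC content in the ratio was not tested. The ratio was formed after the values had been seen and is given as a description, with no test. Ehmt1 made up 14.9% ± 0.4 of the summed FPKM of the 5 methyltransferase genes in siSetdb1 and 11.5% ± 0.6 in siNC, and Ehmt2 57.1% ± 3.6 and 60.9% ± 2.0 (SD, n = 3 each).

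**Figure D3:**
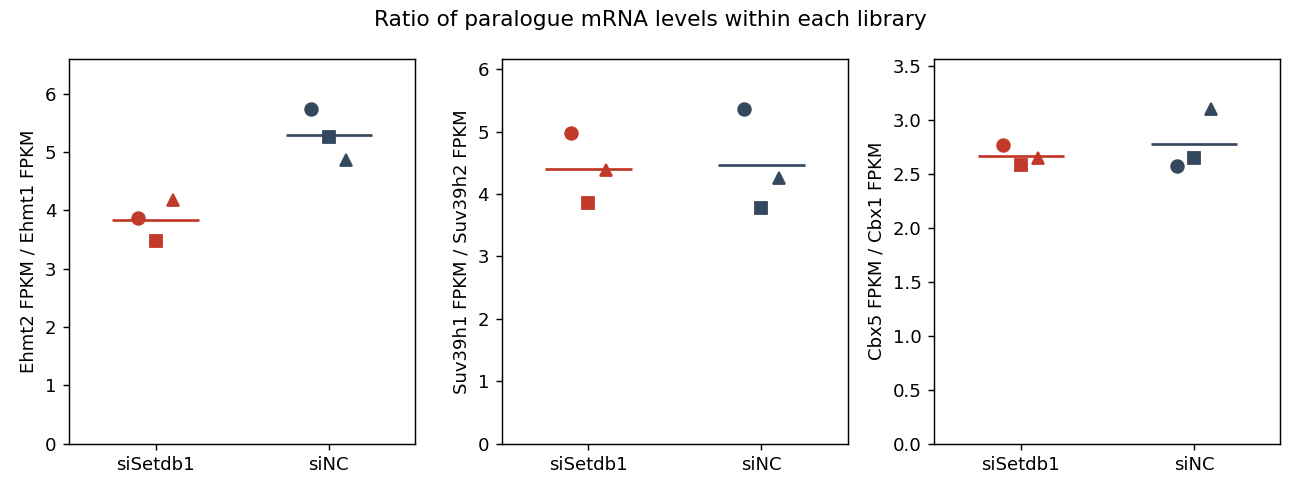
Ratio of FPKM between paralogues within each library (y axes from 0), with siSetdb1 in red to the left of siNC in dark blue, one point per library and a line at the group mean. The Ehmt2 to Ehmt1 ratio lies between 3.48 and 4.17 in siSetdb1 and between 4.86 and 5.74 in siNC, while the other ratios overlap between the groups.

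The SUV39H pair did not pass the test. Suv39h1 (ENSMUSG00000039231, chromosome X, 8061171 to 8074760) had 10.98, 13.1 and 10.2 FPKM in siSetdb1 libraries against 13.6, 12.9 and 12.8 FPKM in siNC libraries, with siSetdb1 replicate 2 inside the siNC range (log2 fold change -0.19, interval -0.41 to 0.03, adjusted p = 0.209, limma). The siNC libraries were close together for this gene. Leaving out 1 library gave changes from -0.28 (without siSetdb1 replicate 2) to -0.12 (without siSetdb1 replicate 3). The change was -0.16 without siNC replicate 1, and none of these fits passed. Suv39h2 (ENSMUSG00000026646, chromosome 2, 3455815 to 3475031) had 2.21, 3.39 and 2.34 FPKM in siSetdb1 libraries against 2.54, 3.41 and 3.02 FPKM in siNC libraries. Replicate 2 was the highest of its group in both (log2 fold change -0.14, interval -0.47 to 0.19, adjusted p = 0.527, limma). With 1 library left out the change ran from -0.28 without siSetdb1 replicate 2 to -0.05 without siSetdb1 replicate 1, and it was -0.22 without siNC replicate 1, -0.06 without siNC replicate 2, -0.08 without siSetdb1 replicate 3 and -0.24 with GC and length trends removed, none of which passed. The Suv39h1 to Suv39h2 ratio was 4.41 ± 0.56 in siSetdb1 and 4.46 ± 0.82 in siNC (SD, n = 3 each). No step that marks strand is named in the protocol. Of the Suv39h1 exon bases, 14.6% overlap the antisense gene Gm14820, itself at no more than 0.0838 FPKM, and of the Suv39h2 exon bases 8.10% overlap Dclre1c, a DNA repair gene at no more than 2.01 FPKM, so some reads of Suv39h2 may belong to its neighbour.

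Setdb2, whose protein has a SET domain split in the same manner as that of SETDB1, had 2.82, 3.33 and 2.48 FPKM in siSetdb1 libraries against 2.34, 2.85 and 3.21 FPKM in siNC libraries (ENSMUSG00000071350, chromosome 14, 59402009 to 59440884). The groups overlapped almost fully (log2 fold change 0.03, interval -0.25 to 0.31, adjusted p = 0.893, limma), and the sign turned to -0.06 without siNC replicate 1. Summed over the 5 methyltransferase genes, the level was 60.5 ± 2.0 FPKM in siSetdb1 and 68.6 ± 2.5 FPKM in siNC (SD, n = 3 each), with ranges of 59.2 to 62.7 and 66.0 to 71.0 FPKM. Ehmt2 makes up most of this sum.

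None of the HP1 genes passed the test. Cbx5, for HP1 alpha (ENSMUSG00000009575, chromosome 15, 103191544 to 103239816), had 52.6, 55.0 and 48.9 FPKM in siSetdb1 libraries against 43.4, 54.3 and 55.4 FPKM in siNC libraries. The siSetdb1 values lay inside the siNC range (log2 fold change 0.04, interval -0.21 to 0.28, adjusted p = 0.833, limma), and the sign turned to -0.07 without siNC replicate 1. Cbx1, for HP1 beta (ENSMUSG00000018666, chromosome 11, 96789127 to 96808640), had 19.0, 21.3 and 18.5 FPKM in siSetdb1 libraries against 16.9, 20.5 and 17.9 FPKM in siNC libraries. Replicate 2 was the highest in both groups (log2 fold change 0.09, interval -0.13 to 0.30, adjusted p = 0.55, limma). Leaving out siNC replicate 1 gave 0.03, as did leaving out siSetdb1 replicate 2, and leaving out siNC replicate 2 gave 0.16, with none passing. Cbx3, for HP1 gamma, the form also found on transcribed genes (ENSMUSG00000029836, chromosome 6, 51470360 to 51483704), had 15.7, 17.9 and 17.3 FPKM in siSetdb1 libraries against 12.7, 17.0 and 16.1 FPKM in siNC libraries. siNC replicate 1 was the lowest of the 6 (log2 fold change 0.15, interval -0.11 to 0.41, adjusted p = 0.388, limma), and the change was 0.03 without that library and 0.23 when siNC replicate 2 was left out.

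The make-up of the HP1 pool was close in both groups. Cbx5 held 58.8% ± 1.3 of the summed HP1 FPKM in siSetdb1 and 60.2% ± 1.6 in siNC, Cbx1 22.1% ± 0.5 and 21.8% ± 1.6, and Cbx3 19.1% ± 1.2 and 18.0% ± 0.5 (SD, n = 3 each). The HP1 sum was 88.7 ± 4.9 FPKM in siSetdb1 and 84.7 ± 10.3 FPKM in siNC (SD, n = 3 each), with siNC replicate 1 the lowest at 72.9 FPKM. Cbx3 has processed pseudogenes in the mouse. Of the distinct stretches of 50 bases, the read length, in its GENCODE M21 transcripts, 8.67% also occur in transcripts of other genes, against 0.0221% for Cbx5 and none for Cbx1. The Cbx3 pseudogenes listed by name held 7 to 12 reads per library in siSetdb1 and 10 to 12 in siNC, beside 1628 to 1851 and 1279 to 1776 reads of Cbx3.

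The demethylase genes did not pass either. Kdm3a, whose enzyme removes mono- and dimethyl groups and whose gene is known to respond to hypoxia (ENSMUSG00000053470, chromosome 6, 71588972 to 71632990), had 16.8, 15.4 and 14.1 FPKM in siSetdb1 libraries against 10.1, 12.9 and 14.0 FPKM in siNC libraries. The groups were apart by the narrow gap between siSetdb1 replicate 3 and siNC replicate 3, and siNC replicate 1 was the lowest. This was the largest estimate of the 10 genes (log2 fold change 0.31, SE 0.12, interval 0.03 to 0.59, adjusted p = 0.123, limma), and it was 0.19 without siNC replicate 1 (adjusted p = 0.176). Kdm4a, whose enzyme acts on trimethylated H3K9 and H3K36 (ENSMUSG00000033326, chromosome 4, 118136957 to 118180043), had 12.9, 12.7 and 12.5 FPKM in siSetdb1 libraries against 13.4, 11.7 and 11.4 FPKM in siNC libraries. The siSetdb1 libraries lay inside the siNC range (log2 fold change 0.06, interval -0.12 to 0.24, adjusted p = 0.61, limma). The change was 0.13 without siNC replicate 1, the highest library for this gene, 0.04 without siNC replicate 2 and 0.02 without siNC replicate 3.

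siNC replicate 1 was the lowest of the siNC libraries for 7 of the 10 genes and the lowest of all 6 libraries for 6 of them. It was not low in general: over 12812 tested genes with a GC value, this library held a median of 102% of the mean of siNC replicates 2 and 3. Relative to the mean of siNC replicates 2 and 3, it held 75.5% of the Kdm3a level, 76.8% of the Cbx3 level, 77.2% of Setdb2, 78.9% of Suv39h2 and 79.0% of Cbx5. These 5 genes have transcripts of 42.2% to 46.7% GC. The 3 genes above 100% in this library were Suv39h1 (106%), Ehmt2 (111%) and Kdm4a (116%), with 50.7%, 59.3% and 54.1% GC. Spearman's rho between GC content and this share was 0.867 over the 10 genes and 0.632 over 12812 tested genes with a GC value, as a description, since all points share the same 3 libraries. Once each library had been corrected for its GC and length trends, Ehmt2 had a change of -0.23 (adjusted p = 0.0161, limma), Kdm3a 0.21 (adjusted p = 0.0801) and Cbx3 0.03 (adjusted p = 0.799).

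**Figure D4:**
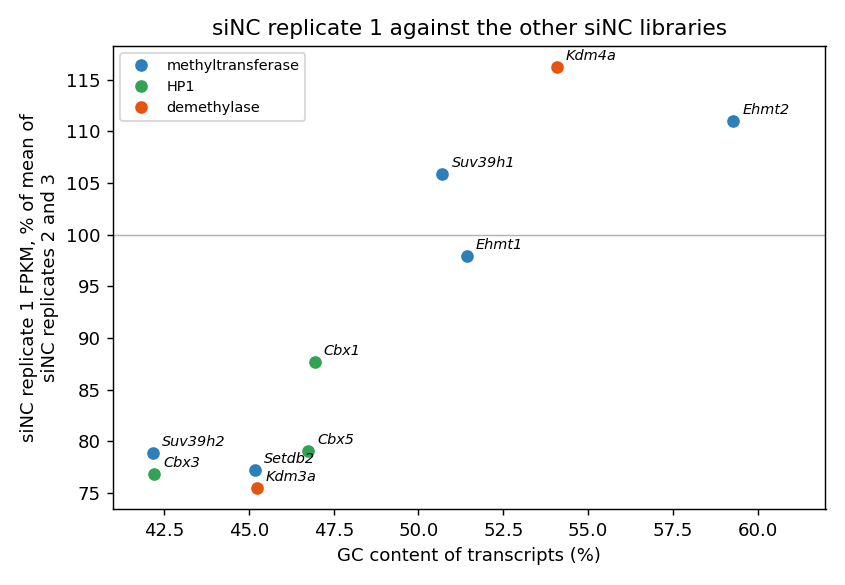
FPKM of the 10 genes in siNC replicate 1 as a percentage of the mean of siNC replicates 2 and 3 (y axis) against the GC content of their transcripts (x axis), coloured by role. The 5 genes under 80% have at most 46.7% GC and the 3 genes over 100% at least 50.7% GC.

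Most related chromatin genes did not pass either. Of 38 listed genes, 33 were tested and 2 passed, which is 6.06% against the 15.1% of all genes tested. None of 4 partners of G9a and GLP passed, among them Wiz, whose zinc finger protein joins the complex (7.504, 6.80 and 7.77 FPKM in siSetdb1 libraries against 8.54, 7.60 and 6.95 FPKM in siNC libraries). None of 8 other H3K9 demethylase genes passed, with Kdm1a the most abundant (13.9, 14.6 and 13.2 FPKM in siSetdb1 libraries against 14.6, 14.5 and 13.9 FPKM in siNC libraries). Median log2 fold changes of these lists were 0.17 and 0.07. At an unadjusted p under 0.05 in limma there were 0 of 4 and 1 of 8 genes, beside 32.2% of all genes tested. limma-voom on recovered reads called 0 in both lists, beside 17.9% of all genes.

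None of 15 HP1 partners and heterochromatin genes passed, and their median log2 fold change was 0.03. This count depends on the processing: 6 of the 15 had an unadjusted p under 0.05 in limma (40.0%, against 32.2% of all genes), and limma-voom on recovered reads called 3 (Chaf1b lower, Kmt5b and Zfp462 higher in siSetdb1), against 17.9% of all genes. Both shares are near the background. The most abundant, Trim28, whose protein recruits SETDB1 and HP1 to zinc finger repressors, had 77.0, 78.0 and 80.9 FPKM in siSetdb1 libraries against 101.7, 89.7 and 84.9 FPKM in siNC libraries. The groups did not overlap, and the change did not pass (log2 fold change -0.22, interval -0.41 to -0.03, adjusted p = 0.105, limma). It was -0.15 when siNC replicate 1, the highest library, was left out (adjusted p = 0.1245, limma). Prdm2 of the PRDM list, a gene of a PR domain zinc finger protein, had 6.29, 6.43 and 6.42 FPKM in siSetdb1 libraries against 5.40, 5.40 and 5.84 FPKM in siNC libraries (log2 fold change 0.17, adjusted p = 0.123, limma), and neither tested gene of that list passed. Both had an unadjusted p under 0.05 in limma, and limma-voom called 1, Mecom, lower in siSetdb1, beside the same 32.2% and 17.9% of all genes.

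Both genes that passed belong to the Polycomb CBX paralogues, whose chromodomain reads methylated H3K27 in place of H3K9. Of 4 tested, 2 fell and 2 did not pass, with a median of -0.28, beside 15.1% of all genes tested called and 8.27% called lower. At an unadjusted p under 0.05 in limma there were 3 of 4, and limma-voom called 2, beside 32.2% and 17.9% of all genes. Cbx2 had 7.52, 7.28 and 7.34 FPKM in siSetdb1 libraries against 11.3, 9.52 and 9.01 FPKM in siNC libraries. Each siSetdb1 value was below each siNC value (log2 fold change -0.38, SE 0.09, adjusted p = 0.0307, limma). Cbx6 had 3.79, 3.79 and 3.97 FPKM in siSetdb1 libraries against 5.32, 4.88 and 5.11 FPKM in siNC libraries, again with no overlap (log2 fold change -0.33, SE 0.07, adjusted p = 0.0216, limma). Without siNC replicate 1 the changes were -0.29 and -0.31, and both passed (adjusted p = 0.0214 and 0.0262). Without siSetdb1 replicates 1, 2 and 3 neither passed (adjusted p = 0.0984, 0.103 and 0.0853 for Cbx2 and 0.0922, 0.0834 and 0.0571 for Cbx6), nor did Cbx2 without siNC replicate 2 (0.065) or Cbx6 without siNC replicate 3 (0.0548).

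Over the 6 libraries, the genes outside the 10 whose log2(FPKM + 1) followed Ehmt2 most closely were Rps19 (Pearson's r 0.998), the gene of a ribosomal protein, Kdelr2 (0.998), of a receptor that returns proteins to the endoplasmic reticulum, and Ubxn1 (0.996), of a UBX domain protein. Rps19 had 62.4, 59.6 and 65.6 FPKM in siSetdb1 libraries against 87.9, 78.6 and 72.2 FPKM in siNC libraries. These were picked as the closest of 12846 genes over 6 libraries, so a high value is built into the choice. Among the 10 genes, Ehmt2 ran opposite to Ehmt1 (r -0.92) and to Kdm3a (-0.91), and Setdb2 ran with Cbx5 (0.90). These pairs were picked as the strongest, sign aside, of all pairs of the 10 genes. They are descriptions over the same 6 libraries, which include the group difference and siNC replicate 1.

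**Figure D5:**
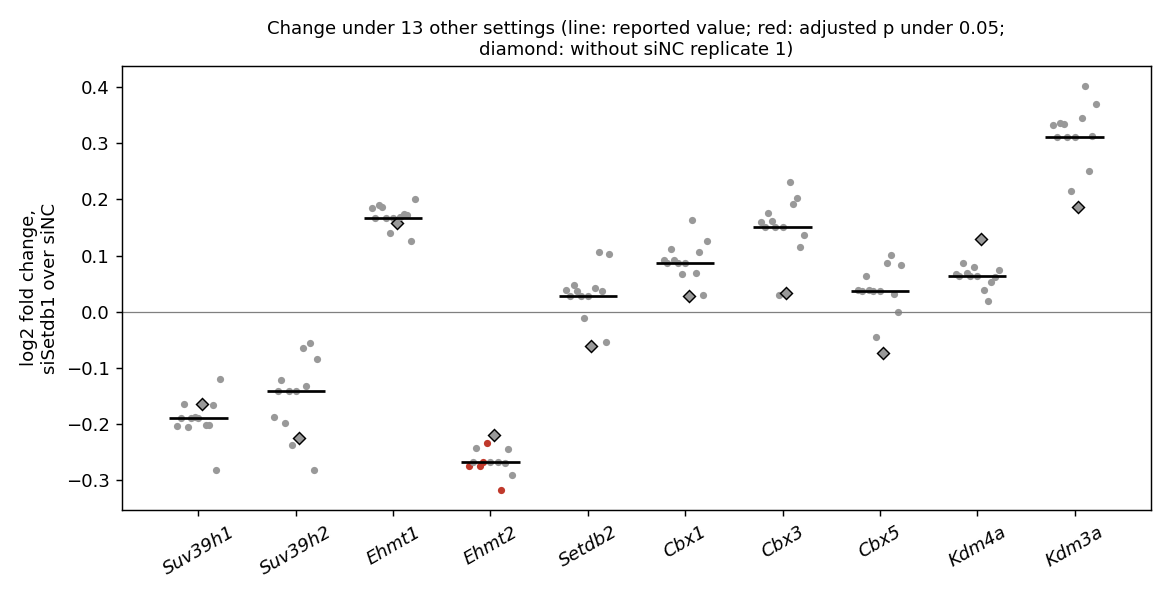
Log2 fold change of siSetdb1 over siNC (y axis) of the 10 genes under 13 other settings of the processing (points), with a line at the reported value, red where the adjusted p was under 0.05 and a diamond for the fit without siNC replicate 1. Red points occur for Ehmt2 only, in 5 of 13 settings, and the points of Setdb2 and Cbx5 fall on both sides of 0.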

How the data were processed

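Polyadenylated RNA of 6 libraries (3 siSetdb1, 3 siNC, grouped by their titles) was sequenced as single-end reads of 50 bases, per the labels' protocols. Tools named without a role in the submitters' processing notes are RSEM 1.2.12, DESeq2 1.4.5, Bowtie2 2.2.5 and HISAT2 2.0.4, with build mm10. The deposited table names no unit. The authors' values were found to be FPKM: with exon lengths of GENCODE M21, whole reads (within 0.01) came out for 98.8% of 25372 genes. Genes reaching 0.5 FPKM in no fewer than 3 libraries were tested on log2(FPKM + 1), a scale that understates changes of low genes, with limma 3.58.1 in R 4.3.3 (robust prior variance with an intensity trend; model of group alone). Two-sided p-values were adjusted by Benjamini-Hochberg over all 12846 genes tested. Named were all 10 genes, Setdb1, each related gene that passed or else the most abundant of its list, and the 3 genes most correlated with the member of smallest p. The genes and lists were chosen with earlier results of these data known. Zfp518b and Prdm16 of the lists were not analysed here. Kdm4d, Adnp and Cbx7 of the lists did not meet the filter on low values and were not tested.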

Additional observations from a re-analysis of the deposited data

How the results depend on the processing

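The count of the 10 genes that passed, 1 as reported, was 0 with no filter on low values, with median-ratio scaling and with the replicate block, and 0 to 1 when any 1 library was left out. It was 1, in each case Ehmt2, with a pseudocount of 0.1, with limma-voom on recovered reads, with the variance trend on mean log2 reads and with GC and length trends removed. Of all genes, 1945 passed as reported (15.1%), 890 with no filter (3.50%), 1015 with the replicate block (7.90%) and 683 to 2176 with 1 library left out (5.32% to 16.9%). The shares were 14.9% with a pseudocount of 0.1, 14.4% with median-ratio scaling, 17.9% with limma-voom, 17.6% with the variance trend on reads and 22.0% with GC and length trends removed, and counts of the 10 genes and of the lists stand against these. Deviations from the group means of same-numbered libraries correlated at -0.157, 0.167 and -0.172. With 3 libraries per group these values cannot settle whether the numbers pair the samples, so both models are reported.

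With GC and length trends removed, the sign turned for Setdb2 (-0.011) and Cbx5 (-0.044). With 1 library left out, the change ran from -0.061 to 0.11 for Setdb2, from -0.073 to 0.10 for Cbx5 (both below 0 without siNC replicate 1 or siSetdb1 replicate 2) and from -0.12 to 0.013 for Wiz (above 0 without siNC replicate 1). Counts of related genes were also run under the settings used for the 10 genes, 6 of them chosen after seeing the data. HP1 partners, 0 as reported, gave 3 with median-ratio scaling (Kmt5b, Lrif1 and Zfp462), 3 with limma-voom, 4 with the variance trend on reads (Chaf1b, Kmt5b, Lrif1 and Zfp462), 3 with GC and length trends removed (Chaf1b, Lrif1 and Trim28), 1 with the replicate block (Chaf1b) and 0 to 1 with 1 library left out. Other demethylases, 0 as reported, gave 1 (Kdm7a) with the variance trend on reads and 0 to 1 with 1 library left out. PRDM genes, 0 as reported, gave 1 (Mecom) with limma-voom and with GC and length trends removed. Polycomb CBX genes, 2 as reported, gave 0 with no filter and with the replicate block and 0 to 2 with 1 library left out. The cause was not tested. Depth limits Suv39h2 and Setdb2 most, at 159 to 262 reads per library.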
